A study of Homo sapiens with 24 samples.

Results

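The 6 genes SARS, YARS, EPRS, IARS2, WARS2 and PHGDH were followed in HEK293 cells, an established human embryonic kidney line, and were chosen by symbol as the aminoacyl-tRNA synthetases on chromosome 1 together with the serine synthesis gene PHGDH. Each had 1 row among the 11579 rows of the table. The 24 samples formed 8 groups of 3, made up of 4 transfection states (untransfected, EVI1-WT, EVI1-AQA and empty vector) that were each left untreated or given 150 μM H2O2, an oxidant that damages DNA, for 8 h. All plasmids were transiently transfected, carried a flag tag and used the CMV promoter, and the share of cells that took them up was not given in the sources used here. EVI1 is a zinc finger transcription factor, and EVI1-AQA has alanines in place of the serines of its carboxy-terminal SQS motif. Untransfected cells had received no plasmid and serve as a second control beside the empty vector.

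Aminoacyl-tRNA synthetases join each amino acid to its tRNA before protein synthesis, and separate enzymes serve the cytosol and the mitochondria. SARS, YARS and EPRS encode the cytosolic seryl-, tyrosyl- and glutamyl-prolyl-tRNA synthetases, whereas IARS2 and WARS2 encode the mitochondrial isoleucyl- and tryptophanyl-tRNA synthetases. PHGDH is the first enzyme of serine synthesis from a glycolytic intermediate. In the integrated stress response, phosphorylation of the translation factor eIF2 lowers general protein synthesis and favours translation of the transcription factor ATF4, whose known targets include cytosolic synthetases, PHGDH and amino acid transporters. Mitochondrial synthetases such as IARS2 and WARS2 are not usually counted among them.

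The values are log2 expression values that the authors had normalized, and every row has a mean of 0 over the 8 samples of a batch, which is the replicate number in the labels. A value of 0 is therefore the average of the gene in that batch, levels cannot be compared between genes, and the read depth is unknown. In bulk samples a smaller share of cells that express a gene and less RNA per cell cannot be told apart. Nothing in the sources used here says that the 3 samples of a group came from separate cultures, so the p-values measure the spread between these samples, which may be technical. The smallest two-sided p of an exact permutation test of 3 samples against 3 is 0.1, so the tests given are those of limma, fitted to all rows with Benjamini-Hochberg adjustment over the 11579 rows.

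Row labels were checked by asking which annotated genes had a row. On chromosome 1, 50.7% of protein-coding genes and 2.39% of other genes had one, and on chromosome X 43.1% and 2.46% did. On the other autosomes, by contrast, the shares were 19.3% and 16.4%. Among the 100 annotated genes on either side of each of the 6 genes, between 45% and 67.9% of coding genes and at most 4.76% of other genes had a row, so labels were used here on chromosomes 1 and X only. Of 6 genes expected in HEK293 cells on these chromosomes, 6 had a row, and of 7 blood cell markers 0 had one. The transfected gene itself was not analysed here. In the row labelled CACNB3, singled out from its values, 3 H2O2 libraries went against their labels, with 4.36 in the library labelled empty vector replicate 2, -4.38 in that labelled EVI1-WT replicate 2 and -2.60 in that labelled EVI1-AQA replicate 1. The other EVI1 libraries had 2.62 to 4.91 there, and the other libraries without EVI1 had -4.49 to -1.64. Only the values of this row were used, and whether it measures CACNB3 was not checked. The library labels were kept, and for the H2O2 comparisons a selection of values without these 3 libraries is given as well.

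The 6 genes lie in 4 stretches of chromosome 1 (GRCh38, GENCODE release 44, where SARS, YARS and EPRS are named SARS1, YARS1 and EPRS1). YARS (ENSG00000134684) spans chr1:32775237-32818031 on the minus strand and SARS (ENSG00000031698) chr1:109213918-109238182 on the plus strand. WARS2 (ENSG00000116874) spans chr1:119031216-119140654 on the minus strand, with PHGDH (ENSG00000092621) at chr1:119648411-119744218 on the plus strand, 507757 bases further on. EPRS (ENSG00000136628, chr1:219968600-220046530, minus strand) and IARS2 (ENSG00000067704, chr1:220094132-220148041, plus strand) are transcribed away from each other, with starts 47602 bases apart.

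To set SARS, EPRS and PHGDH, which had similar values over the 24 samples as a whole, beside IARS2, which was less like them, the 250 bases before their RefSeq starts are shown (GRCh38.p14), each 5′ to 3′ on the strand of its gene, with GC boxes (GGGCGG) and CCAAT boxes on either strand in capitals. They cover chr1:109213668-109213917 for SARS, chr1:220046506-220046755 for EPRS, chr1:119711684-119711933 for PHGDH and chr1:220093882-220094131 for IARS2. RefSeq places the start of PHGDH 63523 bases inside the span that GENCODE gives the gene and that of EPRS 25 bases inside, and the starts used for SARS and IARS2 are the same in both.
SARS: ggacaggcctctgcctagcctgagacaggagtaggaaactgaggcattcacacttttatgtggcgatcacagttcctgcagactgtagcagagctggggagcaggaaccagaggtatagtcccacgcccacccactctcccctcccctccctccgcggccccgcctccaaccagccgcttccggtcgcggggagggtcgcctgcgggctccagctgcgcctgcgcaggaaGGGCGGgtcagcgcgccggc
EPRS: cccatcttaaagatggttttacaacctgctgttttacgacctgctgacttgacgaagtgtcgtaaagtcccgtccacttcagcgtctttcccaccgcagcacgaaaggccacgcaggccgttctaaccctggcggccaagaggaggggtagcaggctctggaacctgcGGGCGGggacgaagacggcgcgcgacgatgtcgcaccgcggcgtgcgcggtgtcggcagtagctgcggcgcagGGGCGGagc
PHGDH: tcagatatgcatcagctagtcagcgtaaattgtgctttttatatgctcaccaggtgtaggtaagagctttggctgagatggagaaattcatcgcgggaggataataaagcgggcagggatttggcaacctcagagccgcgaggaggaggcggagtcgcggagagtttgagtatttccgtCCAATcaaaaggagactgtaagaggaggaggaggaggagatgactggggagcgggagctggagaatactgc
IARS2: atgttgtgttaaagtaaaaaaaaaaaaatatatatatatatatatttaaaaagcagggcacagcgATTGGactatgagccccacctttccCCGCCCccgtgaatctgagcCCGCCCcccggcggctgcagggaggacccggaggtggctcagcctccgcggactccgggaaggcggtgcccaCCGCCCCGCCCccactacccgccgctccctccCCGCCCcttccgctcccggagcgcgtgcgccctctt
Promoter windows of 300 bases, which add 50 bases after the start, were available for 5 of the 6 genes, without YARS. TGATGNAA, the core of the C/EBP-ATF response element through which ATF4 acts, occurs on either strand in 3.62% of 35116 such windows and in 0 of those of the 5 genes, which says only that these letters are not in these windows. The E-box CACGTG, in 7.26% of all windows, was also found in 0 of the 5. A GC box occurs in 45% of all windows, and there were 6 in IARS2, 2 in EPRS, 2 in WARS2, 1 in SARS and 0 in PHGDH. A CCAAT box occurs in 34.6% of all windows, and PHGDH held 1 at position -71, IARS2 held 1 and WARS2 held 1. These motifs share no base with each other, although 2 of the GC boxes of IARS2 overlap by 1 base.

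Of the cytosolic synthetases, YARS separated the groups most by the F-test over all 8 groups. In untreated cells, its values in batches 1, 2 and 3 were 0.48, 0.77 and 0.36 without transfection, 0.38, -0.13 and 0.14 with empty vector, -0.49, -0.11 and -0.17 with EVI1-WT, and -0.43, -0.39 and -0.23 with EVI1-AQA. In cells given H2O2 they were 0.17, 0.68 and 0.20 without transfection, 0.093, -0.40 and -0.0058 with empty vector, -0.31, -0.18 and -0.23 with EVI1-WT, and 0.097, -0.22 and -0.056 with EVI1-AQA. The untransfected sample was thus the highest of its treatment in every batch, and in untreated cells the untransfected samples did not overlap with either EVI1 group. Over the 8 groups, F was 6.88 (limma, adjusted p = 0.00763, 0.0254 with the replicate number as a block), in a comparison that called 18.4% of all rows. YARS was not called without batch 1 (adjusted p = 0.0726), batch 2 (0.0764) or batch 3 (0.114), each of which leaves 16 samples.

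**Figure D1:**
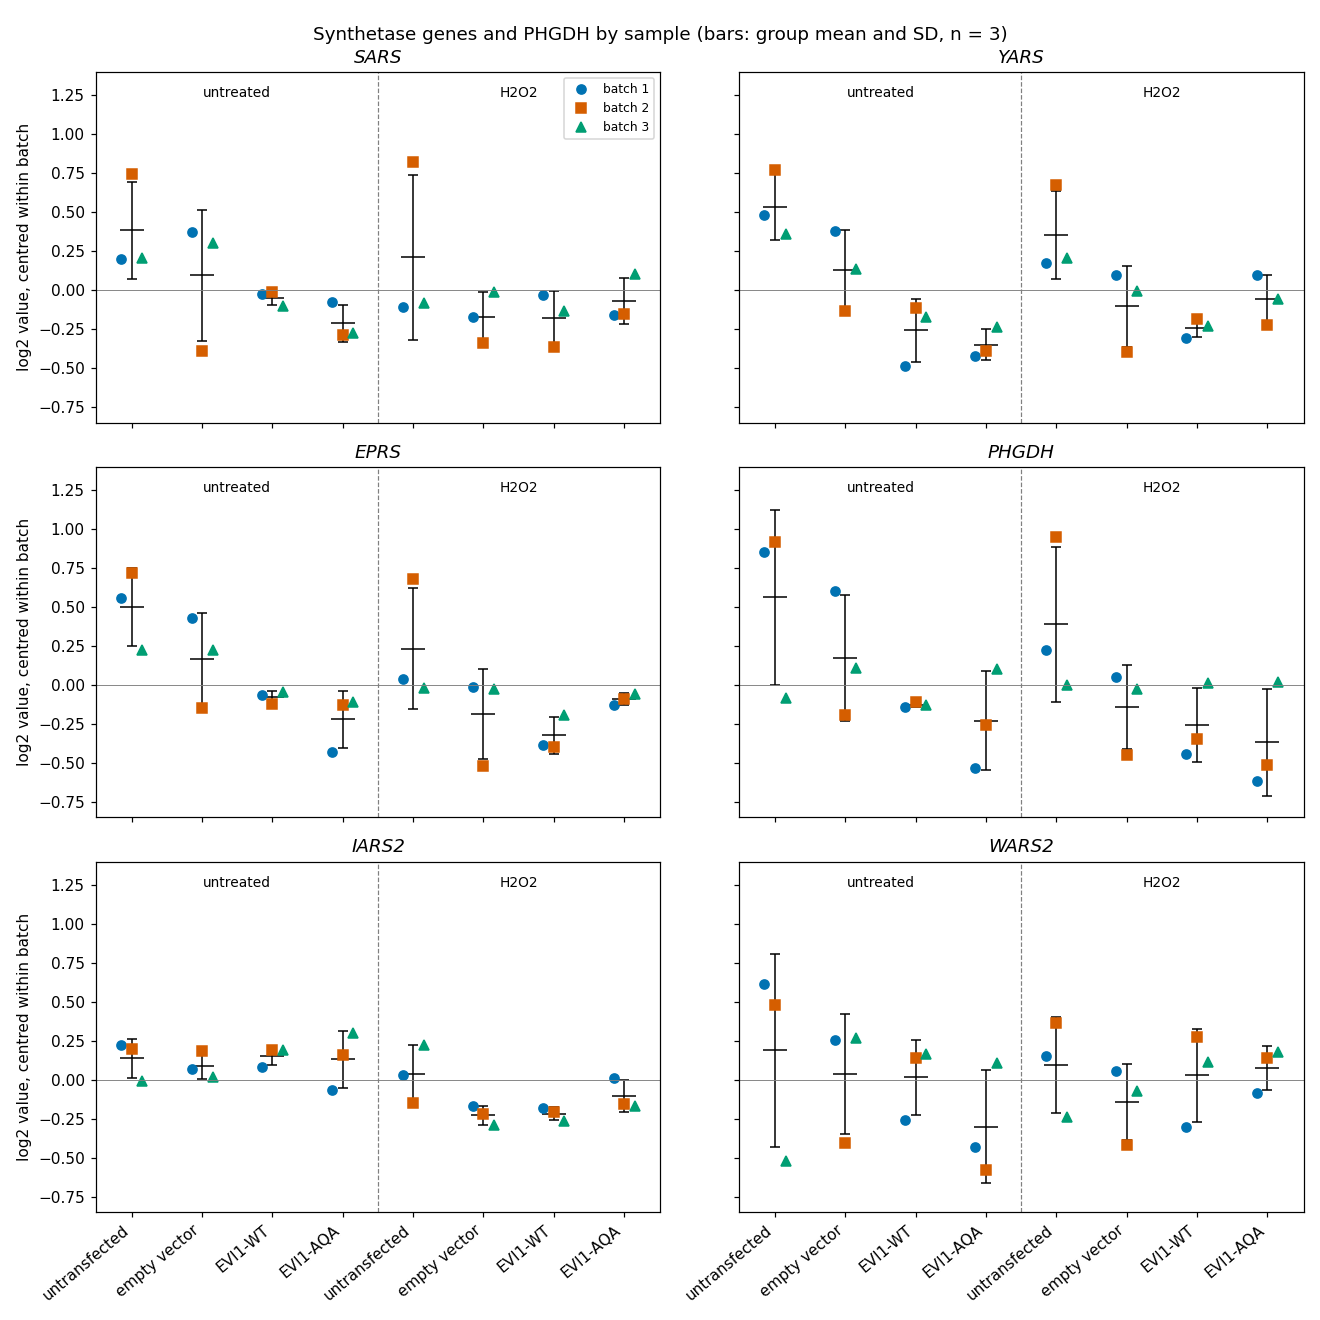
Values of the 6 genes in each of the 24 samples, on a log2 scale that is centred within each batch, with a symbol and colour per batch and bars for the mean and SD of each group (n = 3). In SARS, YARS, EPRS and PHGDH the untransfected samples of batch 2 lie highest, between 0.68 and 0.95, while IARS2 stays between -0.29 and 0.30.

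EPRS, whose enzyme charges tRNAs with both glutamate and proline, had the same order at the top. Untreated, it had 0.56, 0.72 and 0.22 without transfection, 0.43, -0.15 and 0.22 with empty vector, -0.063, -0.12 and -0.046 with EVI1-WT, and -0.43, -0.13 and -0.11 with EVI1-AQA. With H2O2 it had 0.041, 0.68 and -0.022 without transfection, -0.016, -0.52 and -0.027 with empty vector, -0.39, -0.40 and -0.19 with EVI1-WT, and -0.13, -0.087 and -0.056 with EVI1-AQA. Untreated untransfected samples lay above all untreated EVI1 samples, and with H2O2 the range of untransfected samples took in 1 of the empty vector samples. F over the 8 groups was 4.44 (adjusted p = 0.0301 by limma), but with the block the adjusted p was 0.0709, and without the 3 libraries against their labels 0.0643. Leaving out a batch ended the call as well (adjusted p of 0.234, 0.130 and 0.123), as did leaving out untransfected, untreated replicate 1 (0.0624) or 2 (0.0842), or EVI1-WT, H2O2 replicate 1 (0.0531) or 2 (0.0513).

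SARS charges its tRNA with serine, the amino acid whose synthesis PHGDH starts. Untreated, its values were 0.20, 0.74 and 0.21 without transfection, 0.37, -0.39 and 0.30 with empty vector, -0.028, -0.015 and -0.10 with EVI1-WT, and -0.075, -0.29 and -0.28 with EVI1-AQA. With H2O2, they were -0.11, 0.82 and -0.083 without transfection, -0.17, -0.34 and -0.013 with empty vector, -0.033, -0.37 and -0.13 with EVI1-WT, and -0.16, -0.16 and 0.10 with EVI1-AQA. Only the untransfected samples of batch 2 stood far above the others of their group, and the ranges of most groups overlapped. Over the 8 groups SARS was not called (F = 1.86, limma adjusted p = 0.244).

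PHGDH had the widest range of the 6 genes. Without H2O2, PHGDH had 0.85, 0.92 and -0.087 in untransfected cells, 0.61, -0.20 and 0.11 with empty vector, -0.14, -0.11 and -0.13 with EVI1-WT, and -0.54, -0.25 and 0.10 with EVI1-AQA. After H2O2, PHGDH had 0.22, 0.95 and -0.0018 in untransfected cells, 0.053, -0.45 and -0.024 with empty vector, -0.44, -0.34 and 0.011 with EVI1-WT, and -0.61, -0.51 and 0.021 with EVI1-AQA. The spread came from batches 1 and 2, where the SD over the 8 samples was 0.538 and 0.590, whereas it was 0.0823 in batch 3, below the median SD of all rows there, 0.268. The F over the 8 groups was 2.98 (limma adjusted p = 0.0883), and without the untransfected, untreated sample of batch 3 it was 4.90 (adjusted p = 0.0268).

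IARS2, the mitochondrial isoleucyl-tRNA synthetase, followed treatment rather than transfection in the order of its group means. Its untreated values were 0.22, 0.20 and -0.0068 without transfection, 0.070, 0.18 and 0.015 with empty vector, 0.084, 0.19 and 0.19 with EVI1-WT, and -0.066, 0.16 and 0.30 with EVI1-AQA. Its values with H2O2 were 0.031, -0.15 and 0.23 without transfection, -0.17, -0.22 and -0.29 with empty vector, -0.18, -0.21 and -0.26 with EVI1-WT, and 0.011, -0.16 and -0.17 with EVI1-AQA. The untreated and treated samples did not overlap with empty vector or EVI1-WT and overlapped in the other states. WARS2, the mitochondrial tryptophanyl-tRNA synthetase, had 0.61, 0.48 and -0.52 in untreated untransfected cells, and its group means lay between -0.30 and 0.19 with an SD of 0.14 to 0.62. Across the 8 groups F was 3.64 for IARS2 (adjusted p = 0.0528 by limma) and 0.675 for WARS2 (adjusted p = 0.755). IARS2 passed when EVI1-AQA replicate 1 of either treatment, untransfected H2O2 replicate 2 or 3, or untransfected untreated replicate 3 was left out, with adjusted p between 0.0363 and 0.0489.

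For each of SARS, YARS, EPRS and PHGDH, the untransfected untreated group had the highest mean, followed by the untransfected H2O2 group and then by the untreated empty vector group. For YARS, these means were 0.53 ± 0.21, 0.35 ± 0.28 and 0.13 ± 0.26 (SD, n = 3). Neighbours in this order differed by less than their spread. To measure the difference, the 3 transfected states were set against untransfected cells within each treatment and averaged, a comparison that was added after the data were seen. It uses the untransfected samples throughout, and it called 10.5% of all rows lower and 10.9% higher. Of the 6 genes, 4 fell and 0 rose.

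YARS fell by 0.59 ± 0.097 on the log2 scale (SE, limma adjusted p = 0.000505, 0.00180 with the block), to 0.664 of the untransfected level, and was lower in 18 of 18 pairs of samples from the same batch. The pairs are not separate, because each untransfected sample was set against all 3 transfected states of its batch and treatment. EPRS fell by 0.49 ± 0.11, to 0.713 of that level (adjusted p = 0.00367, 0.00890 with the block), and was lower in 17 of 18 pairs. PHGDH fell by 0.63 ± 0.16, to 0.644 (adjusted p = 0.00806, 0.0161 with the block), and was lower in 14 of 18 pairs. SARS differed by -0.40 ± 0.13 (adjusted p = 0.0315), but its adjusted p was 0.0520 with the block, 0.0717 without the 3 libraries against their labels and 0.0640 after quantile normalization. The mitochondrial enzymes were not called: the difference was -0.12 ± 0.068 for IARS2 (adjusted p = 0.228) and -0.19 ± 0.15 for WARS2 (adjusted p = 0.393). The median difference of the 6 genes was -0.44, against 0.0071 over all rows.

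**Figure D2:**
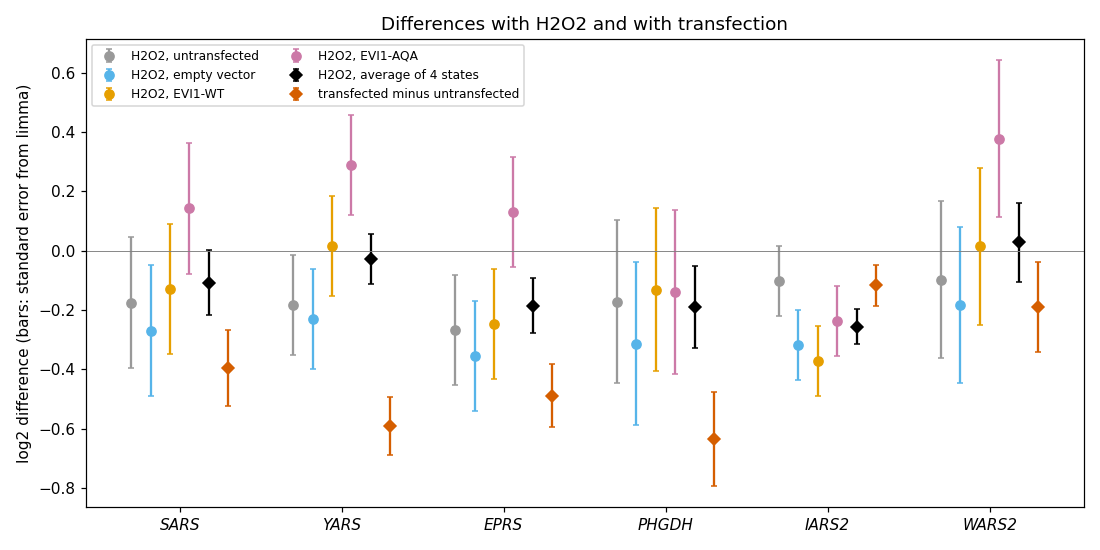
Differences on the log2 scale for the 6 genes, with standard errors from limma. Circles give the H2O2 difference in each transfection state, black diamonds its average and orange diamonds the transfected states minus untransfected cells, which lie between -0.63 and -0.40 for SARS, YARS, EPRS and PHGDH and at -0.12 and -0.19 for IARS2 and WARS2.

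Much of this difference sat in batch 2. Within batches 1, 2 and 3, transfected minus untransfected was -0.44, -0.96 and -0.37 for YARS, so that its direction was shared by all 3. For EPRS the within-batch differences were -0.40, -0.93 and -0.13, and for PHGDH they were -0.72, -1.25 and 0.059. For SARS they were -0.061, -1.04 and -0.083, which places nearly all of its difference in 1 batch. WARS2 differed by -0.51 and -0.56 in batches 1 and 2 but by 0.51 in batch 3, in the opposite direction.

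Leaving out batch 2 gave -0.40 for YARS (limma adjusted p = 0.0440), -0.27 for EPRS (0.142), -0.33 for PHGDH (0.324) and -0.072 for SARS (0.664), so 1 of the 4 calls was left, while the rows called in all went from 2473 to 310. Without batch 1, PHGDH was at -0.59 (adjusted p = 0.0566), and without batch 3, SARS was at -0.55 (0.0610) and WARS2 at -0.54 (0.0410). SARS was also not called when a single library was left out, with -0.31 without untransfected, untreated replicate 2 (adjusted p = 0.129) and -0.24 without untransfected, H2O2 replicate 2 (adjusted p = 0.155).

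The batches also differed in which transfected group was low. In untreated cells of batch 2, empty vector minus untransfected was -1.13 for SARS, -0.90 for YARS, -0.87 for EPRS and -1.11 for PHGDH. In batch 1 the same differences were 0.17, -0.10, -0.13 and -0.25, and there the mean of both EVI1 groups lay below empty vector, with -0.43 for SARS, -0.83 for YARS, -0.68 for EPRS and -0.94 for PHGDH. In batch 3 the EVI1 mean minus empty vector was -0.49, -0.34, -0.30 and -0.12 for these 4 genes. In untreated cells of batch 2 the empty vector samples were thus already low, whereas in batch 1 the EVI1 samples were. With H2O2 in batch 1, the EVI1 mean minus empty vector was 0.074 for SARS, -0.20 for YARS, -0.24 for EPRS and -0.58 for PHGDH, so this order was not shared by all 4 genes there. The EVI1-AQA sample in that mean is a library against its label. For YARS it had 0.097, beside -0.31 with EVI1-WT and 0.093 with empty vector. For SARS the same samples had -0.16, -0.033 and -0.17. What differed between the batches was not tested.

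Set against untransfected cells one at a time, in untreated cells, EVI1-WT and EVI1-AQA share their control samples, and both comparisons were added after the data were seen. With EVI1-WT, YARS fell by 0.79 ± 0.17 (limma adjusted p = 0.00989, 0.0246 with the block), the 1 call among the 6 genes where 7.63% of all rows were called. With EVI1-AQA, YARS fell by 0.88 ± 0.17 (adjusted p = 0.00342, 0.00988 with the block) and EPRS fell by 0.72 ± 0.19 (adjusted p = 0.0150, 0.0309 with the block), where 13.9% of all rows were called. In a fit of only the groups compared, the adjusted p was 0.0832 for YARS with EVI1-WT and 0.0718 for EPRS with EVI1-AQA. Without untransfected, untreated replicate 2, the corresponding values were -0.68 (adjusted p = 0.0567) and -0.61 (adjusted p = 0.0700). Without batches 1, 2 and 3 in turn, the adjusted p of YARS with EVI1-WT was 0.0650, 0.0538 and 0.101. The call of YARS with EVI1-AQA ended without batch 3 (0.0665), and that of EPRS without batch 1 (0.146), batch 3 (0.0781) or EVI1-AQA, untreated replicate 1 (0.0678).

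In the other direction, leaving out untransfected, untreated replicate 3, the lowest of the untreated untransfected samples for PHGDH, WARS2 and EPRS, brought further calls. PHGDH was then at -1.01 with EVI1-WT (limma adjusted p = 0.0445) and passed with EVI1-AQA (0.0198), WARS2 was at -0.85 with EVI1-AQA (0.0397) and EPRS at -0.71 with EVI1-WT (0.0491). Leaving out untransfected, H2O2 replicate 2, which is in neither comparison but enters the spread, gave adjusted p of 0.0360 for EPRS with EVI1-WT and of 0.0315 for SARS and 0.0417 for PHGDH with EVI1-AQA. Without an empty vector replicate 2, EPRS with EVI1-WT (0.0490, H2O2) and SARS with EVI1-AQA (0.0483, untreated) passed.

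In cells given H2O2, 0 of the 6 genes were called against untransfected cells, either with EVI1-WT, where 1.41% of all rows were called, or with EVI1-AQA, where 2.00% were. At an unadjusted p under 0.05, YARS, EPRS, IARS2 and PHGDH passed with EVI1-WT (19.4% of all rows), with YARS at -0.59 ± 0.17 and PHGDH at -0.65 ± 0.27. With EVI1-AQA, YARS and PHGDH passed (18.9% of all rows), with PHGDH at -0.76 ± 0.27. Without the 3 libraries against their labels, IARS2 (-0.26) and PHGDH (-0.61) no longer passed with EVI1-WT, and PHGDH (-0.64) no longer passed with EVI1-AQA.

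Empty vector, which carries no EVI1, can be set against untransfected cells to ask about transfection alone, and here limma called 0 of the 6 genes. In untreated cells 0.147% of all rows were called, and YARS (-0.41 ± 0.17) was among the 14.7% of rows that passed at an unadjusted p under 0.05. With H2O2, 0% of all rows were called, and YARS (-0.46 ± 0.17), EPRS (-0.42 ± 0.19) and IARS2 (-0.26 ± 0.12) were among the 11.0% of rows that passed unadjusted. The library labelled empty vector, H2O2 replicate 2 is in this comparison, and without the 3 libraries against their labels YARS was at -0.31, EPRS at -0.25 and IARS2 at -0.27, and 0 of the 6 genes passed unadjusted.

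EVI1-WT and EVI1-AQA were set against empty vector to ask what EVI1 itself changes, and again 0 of the 6 genes were called by limma. Untreated, EVI1-WT called 0% of all rows, and YARS (-0.38 ± 0.17) was among the 7.09% that passed unadjusted. EVI1-AQA called 0.0864% of rows, and YARS (-0.48 ± 0.17) and EPRS (-0.39 ± 0.19) were among the 14.9% that passed unadjusted. With H2O2, EVI1-WT against empty vector called 0% of rows and EVI1-AQA 0.0173%, and at an unadjusted p under 0.05, which 4.67% and 9.15% of rows passed, 0 of the 6 genes passed. The differences of the 6 genes in these H2O2 comparisons lay between -0.23 and 0.22. Without the 3 libraries against their labels, which are all in these groups, they lay between -0.31 and 0.16, with WARS2 at -0.087 in place of 0.17 and YARS at -0.31 in place of -0.14 for EVI1-WT, and YARS at -0.18 in place of 0.044 and EPRS at -0.050 in place of 0.096 for EVI1-AQA.

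EVI1-AQA against EVI1-WT in cells given H2O2 addresses the serines of the SQS motif. Here 0.0173% of rows were called by limma and 10.5% passed unadjusted, with 0 of the 6 genes in either count. The differences were 0.11 ± 0.22 for SARS, 0.18 ± 0.17 for YARS, 0.23 ± 0.19 for EPRS, 0.11 ± 0.12 for IARS2, 0.046 ± 0.26 for WARS2 and -0.11 ± 0.27 for PHGDH. Each was within 1.5 standard errors of 0, and differences of that size could not be resolved with 3 samples a group. Each group holds 1 library against its label, and without the 3 such libraries the differences were 0.055 for SARS, 0.13 for YARS, 0.22 for EPRS, 0.060 for IARS2, 0.25 for WARS2 and -0.030 for PHGDH.

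Averaged over the 4 transfection states, H2O2 was followed by a fall of IARS2. Its difference was -0.26 ± 0.059 (limma adjusted p = 0.00627, 0.0167 with the block), to 0.837 of the untreated level, and it was lower in 10 of 12 pairs of the same batch and state. This was the 1 gene of the 6 called lower, where 7.63% of all rows were, and 0 were called higher, where 8.90% of rows were. The within-batch differences of IARS2 were -0.15, -0.37 and -0.25. Without batch 2, its difference was -0.20 (adjusted p = 0.16).

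The other 5 genes were not called with H2O2. YARS differed by -0.027 ± 0.084 (limma adjusted p = 0.856) and SARS by -0.11 ± 0.11 (0.541). EPRS (-0.19 ± 0.093, adjusted p = 0.180) and PHGDH (-0.19 ± 0.14, adjusted p = 0.372) were lower in 9 of 12 pairs each. WARS2 differed by 0.028 ± 0.13 (adjusted p = 0.906). Without the 3 libraries against their labels, SARS was at -0.052, YARS at -0.017, EPRS at -0.13, WARS2 at 0.052 and PHGDH at -0.11. IARS2 was then at -0.27 and still called (limma adjusted p = 0.0141). The median of the 6 genes was -0.15, against 0.0016 over all rows. A joint rise of cytosolic synthetases and PHGDH, which ATF4 is known to drive, was therefore not seen after 8 h of H2O2 in these values.

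State by state, limma called 0 of the 6 genes with H2O2, while it called 0.389% of rows in untransfected cells, 2.00% with empty vector, 0.475% with EVI1-WT and 2.02% with EVI1-AQA. Unadjusted, IARS2 passed with empty vector at -0.32 ± 0.12 (17.5% of rows passed) and with EVI1-WT at -0.37 ± 0.12 (14.7%). None of the 6 passed in untransfected cells (15.4% of rows) or with EVI1-AQA (17.7%), where IARS2 differed by -0.10 ± 0.12 and -0.24 ± 0.12. YARS differed by 0.29 ± 0.17 with EVI1-AQA and by -0.23 ± 0.17 with empty vector. Without the 3 libraries against their labels YARS was at 0.21 and -0.083 there, and with empty vector WARS2 was at -0.046 in place of -0.18. EPRS moved from -0.36 to -0.19 and PHGDH from -0.31 to -0.16 with empty vector, and PHGDH from -0.14 to -0.016 with EVI1-AQA. IARS2 then passed unadjusted with EVI1-AQA as well (-0.29). The difference of the H2O2 effect between the 4 states was tested directly by a limma F-test, which called 0.259% of all rows and 0 of the 6 genes. At an unadjusted p under 0.05, 11.5% of rows passed and again 0 of the 6, with the lowest p of 0.15 for YARS. Without the 3 libraries against their labels, the p of YARS in this F-test was 0.46 (F = 0.91).

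Other targets of ATF4 were set beside the synthetases, and they were chosen with earlier results of these data known. All 6 genes of a list on chromosomes 1 and X had a row, and with H2O2 2 of them rose and 1 fell, where 8.90% and 7.63% of all rows did. After H2O2, ATF3, a stress-induced transcription factor, rose by 0.54 ± 0.16 (limma adjusted p = 0.0241) and GADD45A, a growth arrest gene that p53 also drives, rose by 1.00 ± 0.23 (adjusted p = 0.00617). SLC6A9, a glycine transporter, fell by 0.52 (adjusted p = 0.0191), and SESN2, CTH and TSC22D3 were not called. Both calls ended without batch 1, where ATF3 was at 0.22 (adjusted p = 0.400) and GADD45A at 0.40 (0.144), and without batch 2 ATF3 was at 0.57 (0.124). Without any 1 batch SLC6A9 was not called, with adjusted p of 0.0985, 0.0713 and 0.0530. Without the 3 libraries against their labels, 1 gene of the list rose and 0 fell, with ATF3 at 0.56 (adjusted p = 0.0573) and SLC6A9 at -0.43 (0.0818).

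Against untransfected cells, 4 of these 6 targets fell in transfected cells and 0 rose, where 10.5% and 10.9% of all rows did, and the median difference was -0.56. SLC6A9 fell by 0.92 (limma adjusted p = 0.00113), SESN2, which senses leucine, by 0.64 (adjusted p = 0.00913), CTH, an enzyme of cysteine synthesis, by 0.56 (adjusted p = 0.00429), and TSC22D3, also a glucocorticoid target, by 0.49 (adjusted p = 0.0145). ATF3 (-0.47, adjusted p = 0.0721) and GADD45A (-0.56, adjusted p = 0.134) were not called. The count of 4 was the same with the block and without the 3 libraries against their labels. It was 6 without batch 1, 3 without batch 3 and 1 without batch 2, where SLC6A9 was at -0.82 (adjusted p = 0.0184) and 1.19% of all rows fell. The rows called in either direction also differed, with 2395 without batch 1, 1265 without batch 3 and 310 without batch 2. TSC22D3 was also not called without untransfected, H2O2 replicate 2 (-0.45, adjusted p = 0.0510), and CTH was not called without batch 3 (-0.37, 0.0728). ATF3 passed without untransfected, untreated replicate 1 (-0.67, adjusted p = 0.00823) or replicate 1 of empty vector (0.0449) or EVI1-WT (0.0450) with H2O2, and GADD45A without EVI1-AQA, H2O2 replicate 1 (-0.66, 0.0435).

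**Figure D3:**
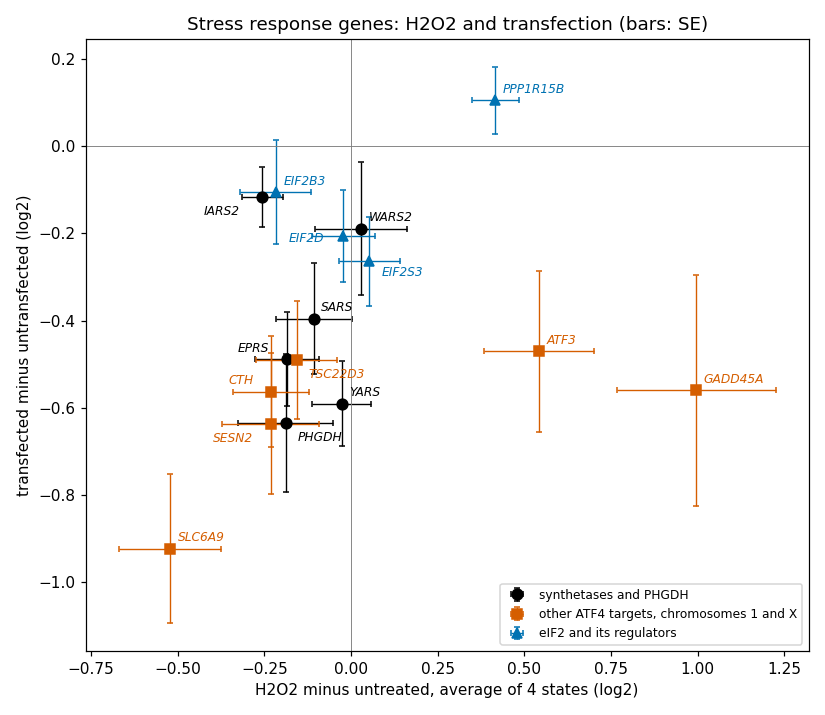
Difference with H2O2, averaged over the 4 states (horizontal), against the difference between transfected and untransfected cells (vertical), on the log2 scale with standard errors from limma, for the 6 genes (black), other ATF4 targets (orange) and eIF2 with its regulators (blue). SARS, YARS, EPRS and PHGDH lie with SESN2, CTH, TSC22D3, ATF3 and GADD45A at about -0.6 to -0.4 on the vertical axis, and SLC6A9 lies at -0.92. On the horizontal axis, ATF3 (0.54), GADD45A (1.00) and PPP1R15B (0.42) lie to the right.

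Among 4 genes of eIF2 and its regulators, PPP1R15B, a constitutive subunit of the phosphatase that reverses eIF2 phosphorylation, rose by 0.42 ± 0.067 with H2O2 (limma adjusted p = 0.000415) and remained called without each batch in turn. PPP1R15B was the 1 gene of these 4 called with H2O2, where 8.90% of all rows were called higher and 7.63% lower. With transfection, limma called none of the 4, while it called 10.5% of all rows lower and 10.9% higher. At an unadjusted p under 0.05, 1 of the 4 passed there, as did 4120 of the 11579 rows. EIF2S3, an eIF2 subunit, was called lower without batch 3 (-0.48, adjusted p = 0.0246) or untransfected replicate 3 of either treatment (0.0187 and 0.0399), and EIF2D without untransfected, untreated replicate 3 (-0.30, 0.0447).

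Of 15 other genes of tRNA charging, modification and processing, 2 rose and 1 fell with H2O2, and 0 rose and 5 fell with transfection. The shares with H2O2 are near those of all rows (8.90% higher, 7.63% lower), and the share that fell with transfection stands beside 10.5% of all rows. TRIT1 (0.46 ± 0.084, limma adjusted p = 0.00120) and YRDC (0.43 ± 0.090, adjusted p = 0.00321) rose, and both make modifications next to the anticodon of tRNAs. TRMT1L, related to a tRNA methyltransferase, fell by 0.32 (adjusted p = 0.0189). Neither rise was called without batch 1, at 0.38 (adjusted p = 0.0510) for TRIT1 and 0.29 (0.143) for YRDC, and TRMT1L was not called without batch 2 (-0.21) or batch 3 (-0.29).

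The 5 that fell with transfection were POLR3C, a subunit of the RNA polymerase that makes tRNAs (-0.62), TRMT13 (-0.51) and TRMT2B (-0.43), which are methyltransferases, TSEN15 of the splicing endonuclease (-0.35) and TARBP1 (-0.34). With the block 3 of them were called, and without batch 2, 0 were. TSEN15 and TARBP1 were not called without the 3 libraries against their labels (limma adjusted p = 0.0679 and 0.0758), after quantile normalization, without moderation or without many of the single libraries. TRMT13 was not called without batch 3 (0.201) or without replicate 2 or 3 of either untransfected group (0.0519 to 0.104), and TRMT2B was not called after quantile normalization (0.0790), without batch 3 (0.0793), or without untransfected replicate 2 of either treatment (0.0586 and 0.0806) or untreated replicate 3 (0.0607). POLR3C kept its call in each of these settings except without batch 2.

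Of 16 genes of amino acid and one-carbon metabolism and transport, 14 had a row. With H2O2, limma called 0 of the 14, while it called 8.90% of all rows higher and 7.63% lower. The lowest by p was SLC6A8, the creatine transporter (0.37 ± 0.17, limma adjusted p = 0.138). With transfection 3 fell (10.5% of all rows did) and 0 rose (10.9%), and they were CTPS1, which makes CTP (-0.35, limma adjusted p = 0.00547), SMS, which makes spermine (-0.34, adjusted p = 0.00400), and SLC16A1, a lactate carrier (-0.22, adjusted p = 0.0173). Without batch 2, 0 of the 3 were called, and SLC16A1 was also not called without batch 1 (adjusted p = 0.0835) or untransfected replicate 2 of either treatment (0.0619 and 0.0627). Of the 6 genes expected in HEK293 cells, GPC4 fell with H2O2 (-0.20), as did 7.63% of all rows. STMN1 (0.22) and MAGED1 (0.33) were higher in transfected cells, as were 10.9% of all rows. With the block, 0 of these 3 genes were called.

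As a description, Pearson's r over the 24 samples lay between 0.783 and 0.906 for the 6 pairs among SARS, YARS, EPRS and PHGDH. For the 9 pairs that include IARS2 or WARS2 it lay between 0.0675 and 0.677. Over all pairs of the 1541 rows on chromosomes 1 and X, the median r was -0.00022 and the 95th percentile 0.495. The points share libraries and groups, and batch 2 carried much of the likeness: within it, r was 0.948 to 0.971 for the 6 pairs, within batch 1 it was 0.499 to 0.939, and within batch 3 it was -0.175 to 0.855, with YARS and PHGDH at the low end. The 9 other pairs had 0.479 to 0.940 within batch 1, a range that overlaps that of the 6, -0.155 to 0.740 within batch 2 and -0.715 to 0.469 within batch 3.

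The rows on chromosomes 1 and X most like each gene, by r over the 24 samples, were other genes for the cytosolic than for the mitochondrial enzymes. YARS was most like the non-coding RNA LINC00467 (0.952) and TAF9B (0.940), and EPRS was most like LINC00467 (0.925) and PHGDH (0.906). PHGDH was most like EPRS and GNG4 (0.905), and SARS most like DPH5 (0.906) and GNG4 (0.887). IARS2 was most like LBR, a nuclear membrane receptor (0.882), and MTOR, the nutrient-sensing kinase (0.762). WARS2 had the weakest matches, with EIF1AXP1, a pseudogene that may share reads with its parent gene (0.780), and IGBP1 (0.737). Within batch 3, r was -0.029 for PHGDH with EPRS and -0.302 for PHGDH with GNG4. The other pairs named here had 0.669 to 0.968 within that batch.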

How the data were processed

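Poly-A RNA of HEK293 cells was made into 3′ tag libraries (QuantSeq FWD) and sequenced by the authors. Their annotation was Ensembl release 90 (GRCh38), and an FPKM cut-off of 10 was set in Qlucore Omics Explorer 3.3. The aligner is not given in the sources used here. The deposited table holds normalized log2 values of 11579 rows in 24 samples, between -4.49 and 4.91, with each row's mean at 0 within each batch (largest departure 4.5e-06). This centring removes batch differences and absolute levels, and the depth is unknown.

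Samples were grouped by their labels. One linear model of the 8 groups was fitted to all samples (limma 3.58.1, R 4.3.3), mainly without the batch number as a replicate block (16 residual degrees of freedom, 2 of them used up by the centring) and alternatively with it (14). The pairing comes from the batch numbers in the labels. The mean correlation of same-numbered deviations, -0.14, is fixed by the centring. Tests were two-sided with Benjamini-Hochberg adjustment over all rows, at 0.05. The code was tested on simulated data, where both fits made more false calls than the adjusted threshold allows. In the averaged H2O2 comparison, 13.9% of the simulated calls were false without the block and 9.57% with it.

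The 6 genes and all lists were chosen with earlier results of these data known. Named genes were the 6, the 2 rows nearest to each by r, and list genes called with H2O2 or the 2 lowest by p, of which 1 is not reported here. List genes called with transfection were named after their values were seen, as were comparisons with untransfected cells as the reference and all motifs but TGATGNAA. Positions are from GENCODE release 44 (94.1% of identifiers found). Alternatives were the block, only the groups compared, other scalings, no moderation, and leaving out batches, single samples or 3 libraries. Other steps used Python 3.11.15, numpy 2.4.6, pandas 2.3.3 and matplotlib 3.10.9.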

Additional observations from a re-analysis of the deposited data

How the results depend on the processing

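Among the 6 genes, 0 values reversed while called under any alternative. SARS, transfected against untransfected, was not called with the replicate block (-0.40), after quantile normalization (-0.33) or without the 3 libraries against their labels (-0.36). EPRS over the 8 groups was not called with the block (F = 3.89), without moderation (4.25) or without those 3 libraries (3.65). IARS2 over the 8 groups was called without moderation (5.49), after centring on sample medians (3.75) and after quantile normalization (4.35). The replicate block, paired by batch, left 911 of the 2136 rows called over the 8 groups, and for the 6 genes it ended these calls of SARS and EPRS and no other.

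When each replicate and each sample was left out in turn, the transfection difference ranged from -0.56 to -0.072 for SARS, -0.67 to -0.27 for EPRS, -0.98 to -0.33 for PHGDH and -0.54 to -0.0017 for WARS2, and the rows called from 310 to 2855. The averaged H2O2 difference of IARS2 ranged from -0.31 to -0.20, and the rows called from 581 to 2088. F over the 8 groups ranged from 4.49 to 7.72 for YARS, 2.37 to 5.31 for EPRS, 1.78 to 4.36 for IARS2 and 1.29 to 6.93 for PHGDH, and the rows called from 12 to 2379. The cause was not tested, apart from fewer samples.

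With the block, the rows called for H2O2 went from 45 to 1 in untransfected cells, 232 to 41 with empty vector, 55 to 4 with EVI1-WT and 234 to 64 with EVI1-AQA, and for the difference between states from 30 to 1. Against untransfected cells they went from 17 to 0 for untreated empty vector, 883 to 402 and 163 to 0 for EVI1-WT (untreated, H2O2) and 1610 to 1024 and 232 to 38 for EVI1-AQA. They went from 10 to 0 and from 2 to 1 for EVI1-AQA against empty vector, and from 2 to 1 for EVI1-AQA against EVI1-WT. Without counts, no limit from depth can be given.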
